A study of Mus musculus with 15 samples.

Results

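The endosomal proteases of thymic dendritic cells were described through 10 genes listed by name: the cathepsin genes Ctsb, Ctsc, Ctsd, Ctsh, Ctsl, Ctss and Ctsz, the asparaginyl endopeptidase gene Lgmn (legumain), the thiol reductase gene Ifi30 (GILT) and the cathepsin inhibitor gene Cst3 (cystatin C). They are 10 of the 22165 genes of the count table, found by matching Ensembl IDs to mouse symbols. The list was chosen with earlier results of these data known, so counts over it are a description. All 10 passed the filter on low counts, as 11746 of the 22165 genes did. The cells came from Itgax-cre Stk11 fl/fl mice, called KO here, and from WT mice, male and female, all on the C57BL/6 strain. Itgax is the gene of CD11c, so Cre is made in CD11c-expressing cells, which include other cell types than the dendritic cells sorted here, and Stk11 encodes the kinase LKB1. Mice of every group, WT included, were 8 to 12 weeks old at injection and bore, under the skin, a B16 melanoma making Flt3L, which makes dendritic cells multiply, and their thymi were taken 9 to 12 days later. There were 15 libraries in 6 groups: 3 plasmacytoid dendritic cell (pDC) KO and 3 pDC WT, 3 conventional dendritic cell type 2 (cDC2) KO and 2 cDC2 WT, and 2 conventional dendritic cell type 1 (cDC1) KO and 2 cDC1 WT. The pDC were sorted as positive for Siglec-H with intermediate CD11c, the cDC2 as positive for CD11b, CD11c and MHC class II, and the cDC1 as positive for CD8a, CD11c and MHC class II.

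Dendritic cells take up proteins into endosomes, where acid-activated proteases cut them into peptides for loading onto MHC class II molecules. The same enzymes trim the invariant chain (Cd74) that blocks the class II groove, and in mice cathepsin S does this in dendritic cells and B cells, whereas cathepsin L does it in the cortical epithelium of the thymus. GILT reduces disulphide bonds so that antigens unfold, legumain cuts after asparagine, and cystatin C blocks cysteine cathepsins. In the thymus, peptides made in this way take part in the selection of T cells and in the formation of regulatory T cells.

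Library totals ran from 3928164 counts (cDC2 WT 1) to 12142712 counts (cDC2 KO 2). Stk11 itself had 18.4 to 30.6 CPM in cDC1 KO and 35.6 to 54.2 CPM in cDC1 WT. It had 28.2 to 36.1 CPM in cDC2 KO and 34.2 to 34.9 CPM in cDC2 WT, and 33.2 to 43.5 CPM in pDC KO and 40.6 to 66.8 CPM in pDC WT. On the log2 scale KO minus WT was −0.88 ± 0.36 (SE) in cDC1, −0.15 ± 0.33 in cDC2 and −0.44 ± 0.29 in pDC, none past the threshold (adjusted p = 1, 0.891 and 0.633). Where in the gene the deletion lies is not stated, and 3′ tags outside it would remain, so this level is no check of the genotype. The sorted subsets were checked against their defining genes: Siglech averaged 20103 CPM in pDC KO and 20814 CPM in pDC WT and 83.2 to 238 CPM in the 9 conventional libraries. Xcr1, a defining cDC1 gene, averaged 631 CPM in cDC1 KO and 563 CPM in cDC1 WT, 58.7 CPM in cDC2 KO and 145 CPM in cDC2 WT, and under 3 CPM in pDC. Itgam, the gene of the cDC2 sorting marker CD11b, averaged 211 CPM in cDC2 KO and 103 CPM in cDC2 WT, 11.5 CPM in cDC1 KO and 1.12 CPM in cDC1 WT, and 65.8 CPM in pDC KO and 5.14 CPM in pDC WT. Its mean was thus higher in KO than in WT in each subset, so it followed genotype as well as subset, and the cause was not tested. The sum of 10 cDC1 markers did not set pDC apart from cDC1 in KO, as it was 6995 to 9575 CPM in pDC KO and 6949 to 8161 CPM in cDC1 KO, with Irf8 alone at 7019 CPM on average in pDC KO. The cDC2 WT libraries stood apart from the others of the conventional subsets. At equal depth they showed 10840 and 11359 genes, against 12430 to 12760 in cDC2 KO. For each library, the log2 CPM of a gene was taken relative to its mean over the 15 libraries. The Spearman correlation of this deviation with transcript length, across genes, was 0.157 to 0.180 in cDC2 WT and −0.145 to −0.0421 in cDC2 KO. Longer genes thus tended to stand higher, relative to that mean, in cDC2 WT and lower in cDC2 KO. The pDC libraries also differed from cDC1 in both measures. At equal depth pDC showed 10846.5 to 11206 genes in KO and 10978 to 11225 in WT. The cDC1 libraries showed 12548 to 12633 in KO and 12588 to 12643 in WT. The correlation with length was −0.0314 to 0.0810 in pDC KO and 0.0384 to 0.185 in pDC WT. In cDC1 it was −0.183 to −0.144 in KO and −0.227 to −0.148 in WT. Levels are given in CPM, read counts scaled to effective library size, and ± is the SD of a group's libraries for a level and the SE for a log2 difference. P-values were computed by the quasi-likelihood test of edgeR, with Benjamini-Hochberg adjustment across the 11746 genes, and a gene was called under 0.05. As the reads are 3′ tags of bulk samples, a level is compared between groups for 1 gene and not between genes, and a smaller share of a cell type and less RNA per cell cannot be told apart. The labels do not say that replicates came from separate mice, so p-values measure the spread between these libraries only.

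The strongest pattern over the 10 genes was a set of 4 cathepsins that stood higher in pDC than in both conventional subsets, in KO and in WT alike. Ctsl, encoding the endopeptidase cathepsin L, was 93.6-fold higher in pDC KO than in cDC1 KO and 75.2-fold higher in pDC WT than in cDC1 WT. Ctsb (cathepsin B, an endopeptidase that also trims dipeptides from the end of chains), Ctsh (cathepsin H, an aminopeptidase) and Ctsd (cathepsin D, the aspartic protease of the family) were 4.12- to 8.84-fold higher in pDC KO and 4.46- to 5.74-fold higher in pDC WT against the cDC1 of the same genotype. Cst3, encoding cystatin C, an inhibitor of cysteine cathepsins, went the other way and was 11.2-fold lower in pDC KO than in cDC1 KO and 17.4-fold lower in pDC WT than in cDC1 WT.

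Counted over the 10 genes, pDC KO against cDC1 KO gave 4 higher and 1 lower, where 9.08% of all tested genes were called higher and 12.4% lower. For pDC KO against cDC2 KO it was 4 higher and 4 lower, beside 10.9% and 14.9%. For pDC WT against cDC1 WT it was 5 higher and 1 lower, beside 12.8% and 14.8%, and for pDC WT against cDC2 WT 4 higher and 2 lower, beside 11.4% and 12.2%. For cDC2 KO against cDC1 KO it was 0 higher and 1 lower, beside 0.724% and 0.545%, and for cDC2 WT against cDC1 WT 2 higher and 1 lower, beside 3.75% and 4.98%. The median log2 difference of the 10 genes was 0.17 for pDC KO minus cDC1 KO, where the median of all tested genes was −0.09, and 1.07 for pDC WT minus cDC1 WT, where that of all genes was −0.05. Against cDC2 it was −0.43 for pDC KO minus cDC2 KO, where that of all genes was −0.08, and 0.15 for pDC WT minus cDC2 WT, where that of all genes was 0.07. Between the conventional subsets it was 0.55 in KO and 0.56 in WT for cDC2 minus cDC1, where those of all genes were −0.02 and −0.05. These comparisons share libraries: each pDC group serves against both conventional subsets.

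Ctsl had 672, 592 and 585 CPM in pDC KO, against 6.85, 5.27 and 9.58 CPM in cDC2 KO and 4.58 and 8.60 CPM in cDC1 KO. The WT libraries had 511, 504 and 423 CPM in pDC, against 8.01 and 12.0 CPM in cDC2 and 4.19 and 8.68 CPM in cDC1. All 6 pDC libraries were thus far above all 9 conventional libraries. The log2 difference was 6.55 ± 0.46 for pDC KO minus cDC1 KO, 6.42 ± 0.38 for pDC KO minus cDC2 KO, 6.23 ± 0.45 for pDC WT minus cDC1 WT and 5.56 ± 0.44 for pDC WT minus cDC2 WT (adjusted p = 3.1e-08, 2.5e-09, 3e-08 and 1.4e-07). The low level in conventional cells was set beside that of Siglech, the gene of the pDC sorting marker. Ctsl in the 9 conventional libraries was 0.743% to 2.51% of the pDC mean of the same genotype, and Siglech was 0.400% to 1.19% of its own. The percentage of Ctsl was the higher in each of these libraries, as in cDC2 WT 2 (2.51% against 0.849%) and cDC1 KO 1 (0.743% against 0.663%). Psmb11, a proteasome subunit gene of the cortical thymic epithelium, where Ctsl is also known to act in mice, had no count in any of the 6 pDC libraries. The thymic epithelium and stroma marker sum was 28.05 to 43.8 CPM in pDC KO and 20.2 to 33.1 CPM in pDC WT, against 15.02 to 253 CPM in the conventional libraries. Of its 8 markers, 4 were at 0 in pDC WT 1 and 7 in pDC KO 3, pDC WT 2 and pDC WT 3. In the libraries with 7 at 0 the whole sum came from the marker Epcam. The part of epithelial cells in the Ctsl level was not tested.

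Ctsb had 1507, 1393 and 1794 CPM in pDC KO, against 156 to 193 CPM in cDC2 KO and 169 and 185 CPM in cDC1 KO. In WT it had 1124, 1501 and 1019 CPM in pDC, against 134 and 173 CPM in cDC2 and 208 and 246 CPM in cDC1. Again all 6 pDC libraries lay above all 9 conventional libraries. The log2 difference was 3.15 ± 0.25 for pDC KO minus cDC2 KO and 3.14 ± 0.29 for pDC KO minus cDC1 KO, and it was 2.99 ± 0.29 for pDC WT minus cDC2 WT and 2.42 ± 0.28 for pDC WT minus cDC1 WT (adjusted p = 5e-08, 5.5e-07, 1.1e-06 and 4.9e-06). Ctsh showed a graded order, pDC above cDC2 above cDC1, within each genotype. It had 965, 889.9 and 866 CPM in pDC KO, 345, 339.6 and 486 CPM in cDC2 KO and 196 and 245 CPM in cDC1 KO. In WT it had 689.7, 955 and 848 CPM in pDC, 276 and 302 CPM in cDC2 and 184 and 189 CPM in cDC1. The ranges of the 3 subsets did not overlap in either genotype, and pDC minus cDC1 was 2.04 ± 0.27 in KO and 2.16 ± 0.28 in WT on the log2 scale (adjusted p = 2.7e-05 and 1.5e-05), while pDC minus cDC2 was 1.22 ± 0.23 in KO and 1.52 ± 0.27 in WT (adjusted p = 0.00064 and 0.00042). The step of Ctsh between cDC2 and cDC1 was 0.82 ± 0.26 in KO and 0.63 ± 0.28 in WT and did not pass (adjusted p = 0.17 and 0.16).

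Ctsd was counted more thinly, at 61 counts in its lowest library. It had 66.4, 63.5 and 77.2 CPM in pDC KO, against 16.8 to 24.7 CPM in cDC2 KO and 13.7 and 15.3 CPM in cDC1 KO. Among WT libraries it had 98.2, 90.8 and 35.5 CPM in pDC, against 18.5 and 24.4 CPM in cDC2 and 11.1 and 15.01 CPM in cDC1. The third pDC WT library was lower than the other pDC libraries and still above every conventional one. That library, pDC WT 3, had the lowest share of counts in ribosomal protein genes of all libraries (2.80%). Its correlation with transcript length (0.185) was the highest. The part of these traits in its Ctsd level was not tested. On the log2 scale pDC minus cDC1 was 2.25 ± 0.41 in KO and 2.52 ± 0.42 in WT, and pDC minus cDC2 was 1.78 ± 0.34 in KO and 1.80 ± 0.40 in WT (adjusted p = 0.00057, 0.00023, 0.00078 and 0.0030). These 4 genes passed the test in all 4 comparisons of pDC with a conventional subset, under each alternative tried, and over these the log2 difference of Ctsl ran from 5.32 to 7.06. In the annotation (GENCODE M21, GRCm38) Ctsd overlaps Gm49369 on its own strand and Ctsl a processed pseudogene, Gm49230. Neither overlapping gene was in the count table, and how such reads were assigned is not given in the sources used here.

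**Figure D1:**
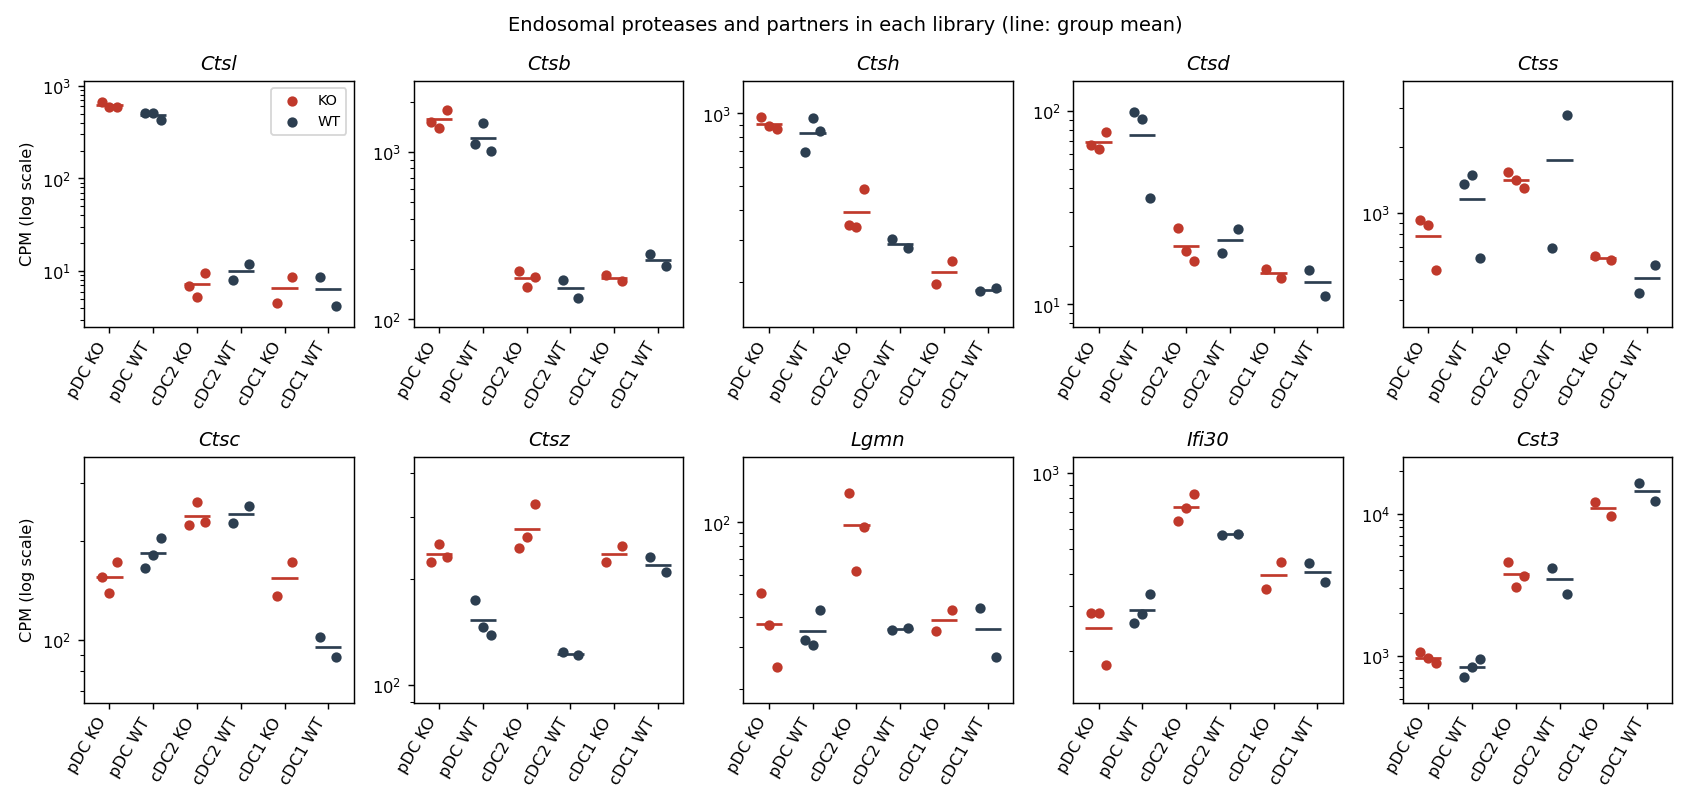
Levels of the 10 genes in each of the 15 libraries, in CPM on a log axis, 1 panel per gene with its own range. Points are libraries (red KO, dark blue WT) and lines are group means. Ctsl, Ctsb, Ctsh and Ctsd are highest in the 6 pDC libraries, and Cst3 is lowest there and highest in the 4 cDC1 libraries.

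Because Ctsl and Ctsd stood together in pDC while Ifi30 and Ctss did not, their promoter windows (RefSeq, GRCm38.p6, 250 bases before to 50 after the annotated start) are set side by side. RefSeq promoters were matched for 8 of the 10 genes, not for Ctsb and Ctsh. Capitals mark matches to any of 6 short motifs searched on both strands: the E-box CACGTG, its longer CLEAR form TCACGTGA known from lysosomal genes bound by TFEB, the interferon-response core (GAAA, any 2 bases, GAAA), the STAT site TTCNNNGAA, the PU.1 core AGGAAGT and the cyclic AMP response element TGACGTCA. Every TCACGTGA also holds a CACGTG. The windows lie at chr13:64370471-64370770 (minus strand) for Ctsl, chr7:142387778-142388077 (minus) for Ctsd, chr8:70766614-70766913 (minus) for Ifi30 and chr3:95526536-95526835 (plus) for Ctss.
Ctsl: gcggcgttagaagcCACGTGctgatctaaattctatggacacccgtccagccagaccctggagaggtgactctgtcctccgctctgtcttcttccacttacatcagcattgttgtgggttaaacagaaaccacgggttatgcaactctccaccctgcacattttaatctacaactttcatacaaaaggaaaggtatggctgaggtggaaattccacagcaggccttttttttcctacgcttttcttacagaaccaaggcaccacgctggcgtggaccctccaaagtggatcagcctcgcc
Ctsd: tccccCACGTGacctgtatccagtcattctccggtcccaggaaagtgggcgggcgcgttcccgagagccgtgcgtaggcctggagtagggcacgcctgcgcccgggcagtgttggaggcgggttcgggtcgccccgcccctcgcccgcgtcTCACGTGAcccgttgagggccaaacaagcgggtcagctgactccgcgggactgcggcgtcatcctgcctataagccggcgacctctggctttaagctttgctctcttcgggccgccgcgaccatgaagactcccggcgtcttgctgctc
Ifi30: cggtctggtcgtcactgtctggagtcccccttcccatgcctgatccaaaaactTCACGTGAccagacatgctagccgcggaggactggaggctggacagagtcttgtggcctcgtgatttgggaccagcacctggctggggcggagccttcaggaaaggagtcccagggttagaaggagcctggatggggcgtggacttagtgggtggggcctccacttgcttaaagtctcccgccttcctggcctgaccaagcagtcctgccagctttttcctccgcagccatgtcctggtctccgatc
Ctss: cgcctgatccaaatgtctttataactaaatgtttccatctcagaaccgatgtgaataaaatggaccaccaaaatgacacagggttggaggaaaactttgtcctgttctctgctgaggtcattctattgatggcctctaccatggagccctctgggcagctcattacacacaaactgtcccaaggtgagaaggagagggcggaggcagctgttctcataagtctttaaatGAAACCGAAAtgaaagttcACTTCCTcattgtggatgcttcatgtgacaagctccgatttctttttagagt

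The E-box was found at −236 from the start in Ctsl, at −245 and −98 in Ctsd and at −196 in Ifi30. It was also found in the window of a further start of Lgmn, so that 4 of the 8 genes held it, against 7.15% of 32851 promoters of the same length. The CLEAR form was found in Ctsd and Ifi30, 2 of the 8 genes, against 0.974% of promoters. Ctsd stood higher and Ifi30 lower in pDC than in cDC2, so the letters TCACGTGA were shared by genes of opposite direction. Ctss alone held the interferon-response core, at −21, against 3.44% of promoters. The PU.1 core was in Ctss, across the start, and in Ctsc, against 9.35% of promoters, the STAT site was in Ctsc against 8.3%, and the cyclic AMP element was in none of the 8 against 1.79%. A match describes letters in this window only.

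Cst3 had 1060.1, 962 and 883 CPM in pDC KO, 4602, 3052 and 3641 CPM in cDC2 KO and 12152 and 9631 CPM in cDC1 KO. The WT values were 712, 830.3 and 941 CPM in pDC, 4177 and 2726 CPM in cDC2 and 16534 and 12279 CPM in cDC1. The 3 subsets formed separate steps in both genotypes, with cDC1 at the top, the reverse of the Ctsh order. The log2 difference of pDC minus cDC1 was −3.49 ± 0.28 in KO and −4.12 ± 0.28 in WT, and that of pDC minus cDC2 was −1.96 ± 0.25 in KO and −2.06 ± 0.27 in WT (adjusted p = 9.8e-08, 1.7e-08, 1.2e-05 and 2.2e-05). The cDC2 minus cDC1 difference was −1.53 ± 0.27 in KO and −2.06 ± 0.31 in WT (adjusted p = 0.0048 and 0.0011). Without cDC1 KO 1 the KO difference was −1.35 (adjusted p = 0.11). Of 6 other cystatin genes on the list, Cst7 and Cstb passed the filter on low counts and neither was called in a subset comparison, and Cstb, encoding the cytosolic inhibitor stefin B, averaged 46.9 ± 21.8 CPM in pDC KO and 41.6 ± 8.66 CPM in cDC1 KO, and 38.05 ± 6.06 CPM in pDC WT and 52.2 ± 14.1 CPM in cDC1 WT.

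Ifi30, encoding GILT, was lower in pDC than in cDC2. It had 282, 281 and 175 CPM in pDC KO, against 645, 727 and 824 CPM in cDC2 KO and 348 and 445 CPM in cDC1 KO. Among WT libraries Ifi30 had 258, 278 and 334 CPM in pDC, against 568 and 577 CPM in cDC2 and 374 and 440.4 CPM in cDC1. Again the subsets did not overlap, with cDC2 at the top. The log2 difference of pDC minus cDC2 was −1.57 ± 0.25 in KO and −0.98 ± 0.26 in WT (adjusted p = 1e-04 and 0.012), and that of pDC minus cDC1 in KO was −0.69 ± 0.27 and did not pass (adjusted p = 0.074). Without cDC2 WT 2 the WT difference was −0.97 (adjusted p = 0.054). GENCODE M21 lists this gene as a processed transcript although its product is a known enzyme.

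Ctss, encoding the cathepsin S that trims the invariant chain in dendritic cells, varied most within cDC2 WT. It had 931, 876 and 549 CPM in pDC KO, 1533, 1416 and 1296 CPM in cDC2 KO and 635 and 612 CPM in cDC1 KO. In WT it had 1352, 1492 and 619.6 CPM in pDC, 689.8 and 2790.3 CPM in cDC2 and 431 and 581 CPM in cDC1. Of the cDC2 WT libraries, cDC2 WT 1 lay below and cDC2 WT 2 above all 3 cDC2 KO libraries. In WT, cDC2 minus cDC1 was 1.78 ± 0.50 on the log2 scale (adjusted p = 0.034), but without cDC2 WT 2 it was 0.44 (adjusted p = 0.59), and the call was also lost without cDC1 WT 1 or cDC1 WT 2 (1.63 and 2.01, adjusted p = 0.23 and 0.11). In KO the same difference was 1.18 ± 0.46 (adjusted p = 0.36), with the groups apart. The pDC minus cDC1 difference was 1.19 ± 0.46 in WT (adjusted p = 0.062), and 7 of 21 alternatives called it.

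Ctsc, encoding cathepsin C, the dipeptidyl peptidase that activates granzymes, had 155, 139 and 172 CPM in pDC KO, 224, 262 and 228 CPM in cDC2 KO and 136 and 172 CPM in cDC1 KO. Among WT libraries Ctsc had 165, 181 and 203 CPM in pDC, 227 and 255 CPM in cDC2 and 102 and 88.3 CPM in cDC1. The cDC1 WT libraries were the lowest of the 15. In WT the log2 difference was 1.34 ± 0.28 for cDC2 minus cDC1 and 0.94 ± 0.26 for pDC minus cDC1 (adjusted p = 0.0079 and 0.010), and without cDC1 WT 2 they were 1.23 and 0.84 (adjusted p = 0.074 and 0.10). In the KO libraries Ctsc was lower in pDC than cDC2, at a log2 difference of −0.62 ± 0.22 (adjusted p = 0.047), and 16 of 21 alternatives did not make that call. Cathepsin Z, a carboxypeptidase encoded by Ctsz, and legumain gave no call between pDC and cDC1 in either genotype. Lgmn was lower in pDC KO (50.4, 37.1 and 24.7 CPM) than in cDC2 KO (134, 62.3 and 95.4 CPM), a log2 difference of −1.37 ± 0.33 (adjusted p = 0.0048). In WT the Lgmn ranges of pDC (30.6 to 42.7 CPM) and cDC2 (35.2 and 35.8 CPM) overlapped. Lgmn in cDC2 KO minus cDC1 KO was 1.32 ± 0.38 (adjusted p = 0.11, DESeq2 0.022). For Ctsz, cDC2 minus cDC1 was −0.84 ± 0.27 in WT (adjusted p = 0.060, DESeq2 0.015) and 0.24 ± 0.24 in KO (adjusted p = 0.98).

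Markers of other cell types also differed between the subsets. The sum of 10 macrophage markers was 2.45 to 8.55 CPM in pDC KO, 101 to 117 CPM in cDC2 KO and 39.2 to 50.4 CPM in cDC1 KO, and it was 6.80 to 12.2 CPM in pDC WT, 88.1 to 104 CPM in cDC2 WT and 23.1 to 29.8 CPM in cDC1 WT. Vsig4, a defining macrophage gene, had at most 2 counts in any group. In cDC2 KO 2, cDC2 WT 1 and cDC2 WT 2 it was the only 1 of the 10 markers at 0. Another marker of the list, Slc40a1, was at 0 in each pDC and each cDC1 library. Of the 8 tested macrophage markers, 3 were called higher in cDC2 WT than in cDC1 WT, beside 3.75% of all tested genes. In KO 1 of the 8 was, beside 0.724%. The sum of 10 thymocyte and T cell markers was 277 to 350.4 CPM in pDC KO and 350.3 to 429.5 CPM in pDC WT, against 47.8 to 211 CPM in the conventional libraries, and that of 8 genes of mature dendritic cells was 60.6 to 501 CPM in pDC KO and 101 to 164 CPM in pDC WT, against 563 to 1753 CPM in the conventional libraries. Macrophages also express members of the list, Ifi30 and Lgmn among others, and the part of other cells in the subset differences was not tested.

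**Figure D2:**
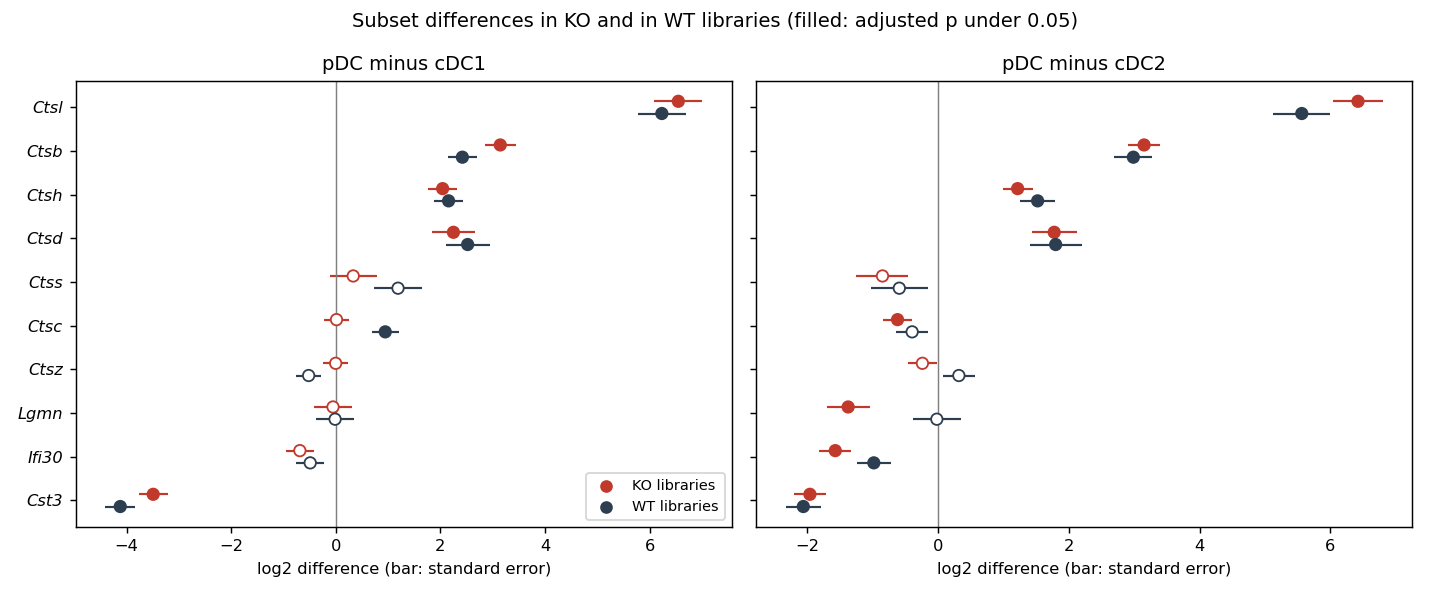
Log2 differences of the 10 genes between pDC and cDC1 (left) and between pDC and cDC2 (right), in KO libraries (red) and WT libraries (dark blue), with standard errors as bars. Filled points have an adjusted p under 0.05. Ctsl, Ctsb, Ctsh and Ctsd lie to the right and Cst3 to the left in both panels and both genotypes.

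Across the 15 libraries the levels of the 4 pDC-high cathepsins followed each other. The Pearson correlation of log2 CPM was 0.976 between Ctsb and Ctsl, 0.935 between Ctsd and Ctsl and 0.928 between Ctsh and Ctsl, and it was −0.950 between Ctsh and Cst3. The points share their subset, so these values describe the split between subsets. The tested genes most like Ctsl were Siglech (0.993), Fam3c (0.993) and Klk1b27 (0.993), the last from a family of near-identical kallikrein genes whose reads the counting could split. For Ctsb they were Cyb561a3 (0.993), Tsc22d1 (0.990) and Notch3 (0.985), for Ctsh Lrp8 (0.977), Pltp (0.976) and Spib (0.973), and for Ctsd Ctso (0.971), Arhgef10 (0.952) and Trpa1 (0.951). Those most like Cst3 were Slc11a1 (0.987), Pianp (0.983) and Ppef2 (0.980). The nearest genes were Ms4a6b (0.956), Ehf (0.952) and Eif4e3 (0.952) for Ifi30, Tnfrsf1b (0.951), Pitpna (0.905) and Traf2 (0.853) for Lgmn, and Mtif2 (0.928), Stap1 (0.881) and Arhgef3 (0.856) for Ctss. For Ctsz they were Nosip (0.917), Lgals3bp (0.892) and Msrb3 (0.879), and for Ctsc Bcl2 (0.912), Cdk5rap2 (0.900) and Tcof1 (0.896).

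The other genes of the endosomal pathway did not all move with the pDC-high cathepsins. Of 13 other peptidases, 10 could be tested. In pDC KO against cDC1 KO 5 were higher and 0 lower, beside 9.08% and 12.4% of all tested genes. In pDC WT against cDC1 WT 4 were higher and 1 lower, beside 12.8% and 14.8%. Ctso, encoding cathepsin O, averaged 103 ± 13.8 CPM in pDC KO and 16.5 ± 1.46 CPM in cDC1 KO, and 112 ± 24.7 CPM in pDC WT and 12.4 ± 0.754 CPM in cDC1 WT. Tpp1, encoding a tripeptidyl peptidase that is itself deficient in a lysosomal storage disease, averaged 244 ± 76.4 CPM in pDC KO and 25.4 ± 11.3 CPM in cDC1 KO, and 255 ± 49.6 CPM in pDC WT and 26.7 ± 8.58 CPM in cDC1 WT. Both also stood above cDC2. For pDC WT minus cDC1 WT the log2 difference was 3.18 ± 0.33 for Ctso, 3.25 ± 0.45 for Tpp1 and 1.78 ± 0.30 for Ctsa, the carboxypeptidase that protects lysosomal galactosidase and sialidase (adjusted p = 1.3e-06, 3.7e-05 and 0.00026).

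Genes of MHC class II and of its loading and control were lower in pDC, 8 of 11 in KO and 9 of 11 in WT against cDC1. The counts were the same against cDC2, and 0 were higher. Of all tested genes, 12.4% in KO and 14.8% in WT were lower in pDC than in cDC1. Against cDC2 the shares were 14.9% in KO and 12.2% in WT. MHC class II protein was a sorting criterion for the conventional subsets only, so the lower class II level in pDC is not independent of the sort. H2-Ab1, a class II β chain gene, averaged 709.6 ± 95.9 CPM in pDC KO and 4266 ± 456 CPM in cDC1 KO, and 547 ± 58.6 CPM in pDC WT and 6224 ± 587 CPM in cDC1 WT, log2 differences of −2.59 ± 0.24 and −3.51 ± 0.24 (adjusted p = 4.7e-07 and 1.7e-08). Cd74 averaged 1781 ± 236 CPM in pDC KO and 6398 ± 739 CPM in cDC1 KO, and 1415 ± 340.0 CPM in pDC WT and 7699.7 ± 88.1 CPM in cDC1 WT.

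The vacuolar proton pump, which acidifies endosomes, had calls in both directions. Of its 17 tested genes of 18, 1 was higher and 1 lower in pDC KO against cDC1 KO, beside 9.08% and 12.4% of all tested genes, and 4 were higher and 2 lower in pDC WT against cDC1 WT, beside 12.8% and 14.8%. Tcirg1 and Atp6v0a2, which encode alternative forms of its a subunit, went opposite ways: Tcirg1 was higher in pDC by 1.36 ± 0.31 in KO and 1.08 ± 0.31 in WT, and Atp6v0a2 lower, at −1.97 ± 0.31 in KO and −1.82 ± 0.31 in WT (log2, adjusted p = 0.0036, 0.014, 0.00015 and 0.00027). The Tcirg1 call was lost in KO without cDC1 KO 2 (1.303, adjusted p = 0.058), and in WT without cDC1 WT 1 (1.12), cDC1 WT 2 (1.07) or pDC WT 1 (0.89), at adjusted p = 0.089, 0.089 and 0.051. Of 11 genes that sort enzymes to lysosomes, 2 were higher and 2 lower in pDC KO against cDC1 KO, and 2 higher and 4 lower in pDC WT against cDC1 WT, where the same shares of all genes apply. Sort1, encoding the sorting receptor sortilin, averaged 45.2 ± 13.4 CPM in pDC KO and 5.005 ± 2.82 CPM in cDC1 KO, and 54.6 ± 11.2 CPM in pDC WT and 6.69 ± 3.80 CPM in cDC1 WT. Igf2r, encoding the large mannose 6-phosphate receptor that carries cathepsins, averaged 1.26 ± 1.42 CPM in pDC KO and 19.3 ± 9.93 CPM in cDC1 KO, and 0.648 ± 1.01 CPM in pDC WT and 35.6 ± 6.05 CPM in cDC1 WT. In cDC2 both were low: Sort1 averaged 6.94 ± 1.00 CPM in cDC2 KO and 7.27 ± 0.701 CPM in cDC2 WT, and Igf2r 1.97 ± 1.21 CPM in cDC2 KO and 2.41 ± 3.41 CPM in cDC2 WT. Of 10 lysosome regulators (TFEB family, Rag GTPases and lysosomal membrane genes), 1 was higher and 1 lower in KO and 2 higher and 1 lower in WT, for pDC against cDC1, close to the shares over all genes.

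**Figure D3:**
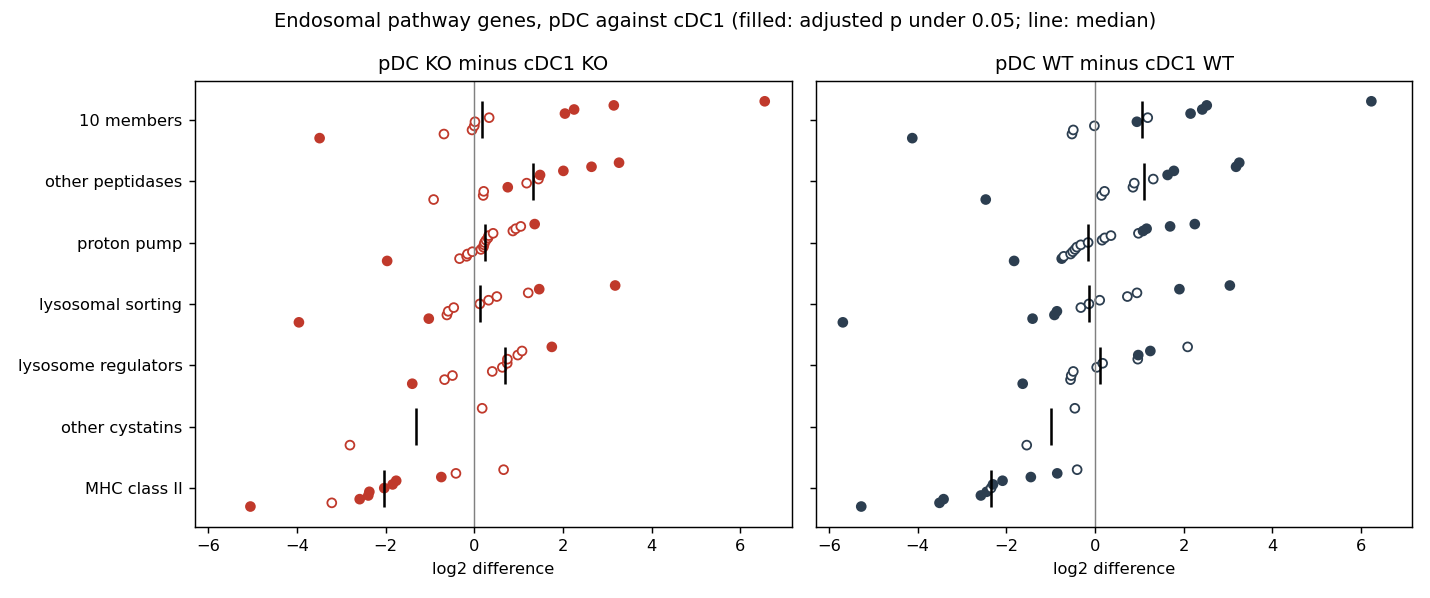
Log2 differences of pDC minus cDC1 in KO libraries (left) and WT libraries (right) for the 10 genes and for 6 lists of other pathway genes. Each point is a gene, filled where the adjusted p is under 0.05, and the line is the list median. MHC class II genes lie mostly left of 0, and the cathepsins and other peptidases spread to the right with Cst3 and few others on the left.

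None of the 10 genes was called between KO and WT in any subset. With edgeR's quasi-likelihood test, 0 of 10 passed in pDC KO against pDC WT, beside 0.0681% of all tested genes, 0 of 10 in cDC2, beside 0.119%, 0 of 10 in cDC1, beside 0.0255%, and 0 of 10 in the average over the subsets, beside 0.306%. At an unadjusted p under 0.05 the counts were 1 in pDC, 2 in cDC2, 1 in cDC1 and 2 in the average, where 10.6%, 13.3%, 3.83% and 10.2% of all genes had such a p. DESeq2 called 0 in pDC, 2 in cDC2, 0 in cDC1 and 1 in the average. The groups did not overlap for 2 of the 10 genes in pDC, 4 in cDC2 and 5 in cDC1, where 11.3%, 34.8% and 37.2% of all genes did not overlap. Nor was any gene of the 6 pathway lists called in these comparisons.

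Ctsz came nearest to a call. It had 223, 251 and 232 CPM in pDC KO, against 175, 146 and 139 CPM in pDC WT. In cDC2 it had 245, 263 and 326 CPM in KO, against 124 and 122 CPM in WT, and in cDC1 it had 223 and 248 CPM in KO, against 231 and 209 CPM in WT. The KO libraries lay above all WT libraries in pDC and in cDC2, and the groups overlapped in cDC1. The log2 difference, KO minus WT, was 0.62 ± 0.22 in pDC, 1.17 ± 0.25 in cDC2 and 0.63 ± 0.14 in the average over the subsets (adjusted p = 0.37, 0.062 and 0.078). DESeq2 gave 1.07 in cDC2 and 0.58 in the average (adjusted p = 0.00041 and 0.00076), and with offsets for transcript length and GC content the cDC2 difference was 0.53 (adjusted p = 0.43). The correlation with transcript length, relative to the mean library, differed between cDC2 KO and cDC2 WT, as given above. The offsets moved the median difference of all genes from 0.09 to −0.11. The cDC2 effect minus the cDC1 effect was 1.07 ± 0.36 (adjusted p = 0.50).

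Lgmn had 134, 62.3 and 95.4 CPM in cDC2 KO, against 35.2 and 35.8 CPM in cDC2 WT. Its other groups averaged 37.4 ± 12.8 CPM in pDC KO and 35.1 ± 6.67 CPM in pDC WT (n = 3 each), and 38.8 ± 5.71 CPM in cDC1 KO and 35.5 ± 11.8 CPM in cDC1 WT (n = 2 each). The cDC2 KO libraries were the highest 3 of the 15, and the other 5 groups lay close together. The difference in cDC2 was 1.45 ± 0.38 (adjusted p = 0.13), with DESeq2 1.35 (adjusted p = 0.039), without a filter on low counts 1.41 (adjusted p = 0.041) and with the length and GC offsets 0.98 (adjusted p = 0.35). Its effect in pDC minus that in cDC2 was −1.36 ± 0.50 (adjusted p = 0.49). The macrophage marker sum in cDC2 was 101 to 117 CPM in KO and 88.1 to 104 CPM in WT. The mature dendritic cell marker sum was 946 to 1753 CPM in cDC2 KO and 563 to 876 CPM in cDC2 WT, and the sum of 8 pDC markers was 976 to 1025 CPM in cDC2 KO and 1389.9 to 1695.5 CPM in cDC2 WT. The macrophage ranges overlapped and the other 2 did not, and their part in the Lgmn and Ctsz differences was not tested.

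Ctsc in cDC1 had 136 and 172 CPM in KO, against 102 and 88.3 CPM in WT, a difference of 0.69 ± 0.27 that did not pass (adjusted p = 1). Cst3 in cDC1 had 12152 and 9631 CPM in KO, against 16534 and 12279 CPM in WT, so KO lay below WT with a difference of −0.40 ± 0.30 (adjusted p = 1). Ctsb was also below WT in cDC1, at −0.36 ± 0.28, while in pDC it was 0.37 ± 0.23 with overlapping groups (adjusted p = 1 and 0.61). The pDC-high Ctsl had a difference of 0.36 ± 0.29 in pDC and −0.50 ± 0.36 in cDC2 (adjusted p = 0.72 and 0.58), and all 3 pDC KO libraries were above the 3 pDC WT libraries. Ctss had −0.56 ± 0.40 in pDC, −0.30 ± 0.44 in cDC2 and 0.30 ± 0.48 in cDC1 (adjusted p = 0.67, 0.83 and 1), and without cDC2 WT 2 the cDC2 difference was 1.05. The 95% interval of its pDC difference ran from −1.39 to 0.28. The remaining genes of each subset had differences between −0.24 and 0.23 in pDC, −0.09 and 0.43 in cDC2 and −0.04 and 0.24 in cDC1. Differences of the KO effect between subsets gave 0 calls among the 10 genes in each of the 3 comparisons, where 0.00851%, 0% and 0% of all genes were called.

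**Figure D4:**
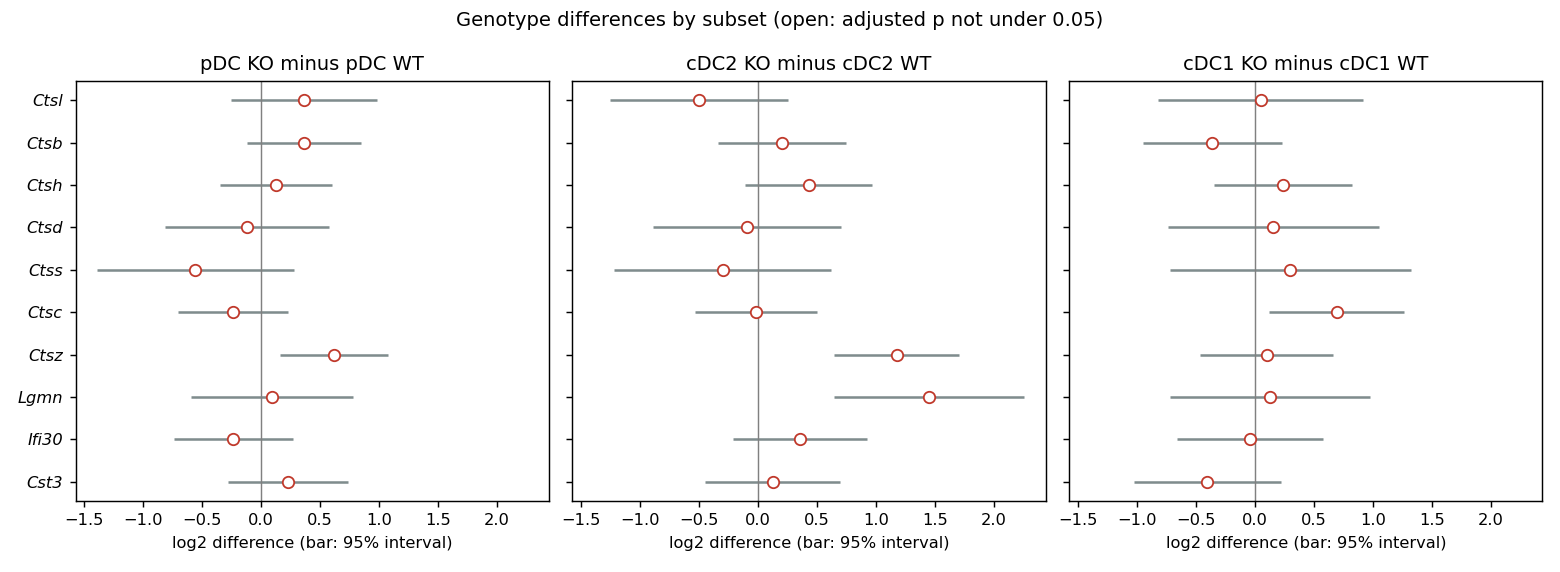
Log2 differences of KO minus WT for the 10 genes in pDC, cDC2 and cDC1, with 95% intervals as bars. All points are open, as no adjusted p is under 0.05. The intervals lie above 0 for Ctsz in pDC and cDC2, for Lgmn in cDC2 and for Ctsc in cDC1, before adjustment for the number of genes.

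The 6 groups were also put in order of their mean levels. For Ctsb, Ctsh and Ctsl both pDC groups came ahead of all 4 conventional groups with pDC KO on top, and for Ctsd with pDC WT on top, and the ranges of pDC KO and pDC WT overlapped for each of these genes except Ctsl. For Cst3 the means ran down from cDC1 WT through cDC1 KO, cDC2 KO, cDC2 WT and pDC KO to pDC WT, with overlapping ranges between the genotypes of cDC2 and of pDC. For Ctsz the 3 KO groups (235 to 278 CPM on average) and cDC1 WT (220.0 CPM) came ahead of pDC WT (153 CPM) and cDC2 WT (123 CPM). For Lgmn the 5 groups behind cDC2 KO averaged 35.1 to 38.8 CPM with overlapping ranges. The genes lie on 8 chromosomes. Ctsc and Ctsd are on chromosome 7 and Ctsz and Cst3 on chromosome 2, in the GRCm38 build at 7:88278085-88310888, 7:142375911-142388038, 2:174427493-174439039 and 2:148871722-148875692, and neither pair showed a shared pattern over the groups.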

How the data were processed

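Expression was measured by strand-specific 3′ RNA sequencing of sorted mouse thymic dendritic cells. Per the labels' protocols, cDNA was primed with barcoded oligo-dT, samples were then pooled, and 12 PCR cycles followed. The authors deposited raw counts per gene, whole numbers with 1 column per library and no normalization, and all columns were used (0 left out). STAR, HTSeq, DESeq2 and the mm10 build are listed in the submitters' processing notes, while what each did, and its version, is not given in the sources used here. No molecular identifiers are described, so counting error is the least error of a value.

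Genes were kept by edgeR's filterByExpr over the 6 groups (minimum count 10), which left 11746 of 22165 genes and dropped genes holding 0.0538% of counts. TMM factors were 0.841 to 1.08. A robust quasi-likelihood model with 1 coefficient per group was fitted to all 15 libraries (edgeR 4.0.16, R 4.3.3), and groups of 2 libraries borrow their spread from the others. P-values were two-sided and adjusted by the Benjamini-Hochberg method over all tested genes, with a threshold of 0.05. The 13 comparisons were KO minus WT in each subset and their average, the subset differences in each genotype and the differences of the KO effect between subsets. Within each group, libraries differed beyond counting error. The labels do not say that a replicate number marks a shared mouse or day, so replicate numbers were not taken as pairs. After centring on group means, same-numbered libraries (33 pairs) had correlations of −0.182 to 0.179, 6 over 0.1. Centred values mirror each other in groups of 2 libraries, so some of these correlations repeat, and they cannot decide whether libraries were paired.

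The rule for named genes takes all 10 genes and Stk11 whatever their value, of which the text prints the main rows, up to 4 genes with the smallest p per pathway list and comparison (6 lists of 69 genes), and the 3 tested genes with the highest correlation to a member. A further 12 lists held cell type markers. The genes and lists were chosen with earlier results of these data known, so they are a description. Psmb11, Vsig4 and Siglech are markers named for their role, Cstb and Cd74 follow the rule of the lists, and coordinates are from GENCODE M21. Promoter sequences were read from RefSeq. Tests were also run on simulated counts. There all groups shared a common mean per gene, apart from genes set to differ in a single group. That run did not model differences in quality between libraries, and no result here rests on it. Alternatives were RLE size factors, DESeq2 1.42.0, no filter, only the groups of a comparison, the replicate number as a block, offsets for transcript length and GC content (mgcv 1.9.3), and leaving out each library in turn.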

Additional observations from a re-analysis of the deposited data

How the results depend on the processing

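Of 130 member values, 29 were called. None of the 29 changed sign under any alternative, 23 stayed called under every one and 6 lost the call under at least 1, namely Ctsc in 3 subset comparisons, Ctss in cDC2 WT against cDC1 WT, Ifi30 in pDC WT against cDC2 WT and Cst3 in cDC2 KO against cDC1 KO. Of the 101 uncalled values, 43 changed sign somewhere and 13 were called somewhere. In cDC2 KO against cDC2 WT, DESeq2 called 2 members and the test without a filter 1, against 0, and DESeq2 called 1 in the average over the subsets, against 0. In cDC2 WT against cDC1 WT, with 3 called, DESeq2 gave 5, the fit on these groups only gave 1 and leaving out a library gave 1 to 4. In cDC2 KO against cDC1 KO, with 1 called, DESeq2 gave 4, no filter 3, these groups only 2 and leaving out a library 0 to 1. Ctss turned on cDC2 WT 2: leaving out a library gave −0.96 to 1.05 for cDC2 KO minus cDC2 WT, −0.41 to 0.27 for the average and −1.27 to 0.75 for pDC WT minus cDC2 WT. Ifi30 in cDC2 KO minus cDC2 WT was −0.24 with the length and GC offsets. With the replicate number as a block, Ctss in cDC2 KO minus cDC2 WT was 0.066, and 7 members in place of 6 were called in pDC WT against cDC1 WT, where Ctss was 1.36 (adjusted p = 0.024). That value of Ctss was also called by DESeq2, without a filter, with the offsets and without cDC2 WT 1, cDC2 WT 2 or pDC WT 3 (adjusted p = 0.0048 to 0.029). The cause of these changes was not tested. Where leaving out a library left a group with 1 sample, that sample was assumed to vary like the others. With 2 or 3 libraries per group, depth limited Ctsd and conventional-cell Ctsl most, at 61 and 23 counts in their lowest libraries.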
